A study of Mus musculus with 12 samples.

Results

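This account covers 10 mouse genes of fat cells and lipid droplets in allergic and untreated ear tissue: Lep, Adipoq, Pparg, Plin1, Plin2, Plin4, Cidea, Cidec, Lipe and Hilpda. The genes were given as a list, and their members on the array were all probe sets annotated to these symbols. Probe sets were annotated to 9 of the 10 genes, 10 probe sets among 45037 that are not array controls. Plin1 was not analysed here. Of the 10 probe sets, 9 reached an intensity of 16 in at least 3 of the 12 arrays and were tested, with 13383 genes tested in all. The remaining probe set, a second for Lipe (1432180_at), stayed below 16 on all 12 arrays and was not tested, so each of the 9 genes rests on a single probe set.

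RNA of whole ears from 6 female mice aged 8 to 10 weeks was hybridized to 12 Affymetrix mouse expression arrays. The mice were wild type, of the C57BL/6J line (wt), or carried null alleles of both cannabinoid receptors (Cnr1-/-/Cnr2-/-, ko), with 3 mice of each genotype. Every mouse was sensitized with the contact allergen dinitrofluorobenzene (DNFB), 50 µl at 0.2% on the shaved abdomen on 2 consecutive days. On day 5 its right ear was challenged with 10 µl of 0.3% DNFB and its left ear was left untreated as the control ear, and both were taken 48 h after challenge. The labels describe this single ear challenge but count the 48 h from a second one, so the number and timing of ear challenges are uncertain. The 4 groups of 3 arrays are therefore wt control, wt DNFB, ko control and ko DNFB ears, and the control ears also come from sensitized and challenged animals. The background strain and breeding of the knockout mice are not given in the sources used here, so genotype and strain or litter cannot be told apart. Replicates are separate mice.

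Adipocytes store triglyceride in a large lipid droplet and secrete hormones. The nuclear receptor Pparg drives their differentiation and maintains their gene expression; leptin (Lep) and adiponectin (Adipoq) are their best known secreted products. Perilipins (Plin1, Plin2, Plin4) coat the droplet, the CIDE proteins Cidea and Cidec promote the fusion and growth of droplets, and hormone-sensitive lipase (Lipe) splits stored lipid. Hilpda, a small droplet protein induced by hypoxia, inhibits adipose triglyceride lipase. In the ear these genes are not limited to fat cells, since sebaceous gland cells fill with droplets and macrophages can store lipid in droplets coated by Plin2.

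Upstream sequence is shown for Lep and for the most downstream of the 3 annotated starts of Pparg, because both genes fell with DNFB in both genotypes and these stretches hold the element of C/EBP factors, regulators of fat cell genes. The element was searched as TTGCNNAA on both strands, and its matches are in capitals. Both stretches are on the plus strand of GRCm38.p6 and come from RefSeq. They end at the base before the annotated start.
Lep, chr6:29060101-29060220: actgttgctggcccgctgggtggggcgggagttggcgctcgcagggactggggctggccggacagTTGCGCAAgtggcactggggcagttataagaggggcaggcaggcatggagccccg
Pparg, chr6:115421836-115422065: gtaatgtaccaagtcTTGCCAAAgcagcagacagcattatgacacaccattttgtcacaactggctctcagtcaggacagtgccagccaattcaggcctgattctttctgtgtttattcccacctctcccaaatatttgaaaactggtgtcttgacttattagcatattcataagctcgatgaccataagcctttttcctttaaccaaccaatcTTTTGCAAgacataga

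The Lep match begins at position -55 and the Pparg matches at -215 and -16, counted from the annotated start. Of the 10 genes, 9 had RefSeq windows, 14 windows of 300 bases in all, and this element lay in 4 of them, in Lep, Pparg, Cidec and Plin1. It occurred in 10.8% of all 32851 windows. The nuclear receptor half-site AGGTCA lay in 3 windows, of Plin2 and Pparg, against 16.26% of all windows, and its paired form, the DR1 element, in none of the 14 against 0.03957%. The core of the hypoxia response element, ACGTG or GCGTG, lay in 7 windows against 43.77% of all, with 3 matches at -111, -43 and -8 from the downstream of the 2 starts of Hilpda. The half-site is contained in the DR1 element. A match describes these letters and was not tested as a binding site.

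Facts of the whole series set the limits. Array medians of intensity ran from 24.7 to 30.1, and an intensity of 16 was reached by 57.7% to 61.5% of probe sets. Pairs of arrays from the same group correlated over all probe sets at r = 0.917 to 0.930 and pairs from different groups at 0.884 to 0.927, so no array stood clearly apart. The arrays were assigned here to 3 washing runs, inferred from the times and fluidics modules in the instrument records, which name no runs. All wt control ears and wt DNFB ear 1 shared run 1. Run 2 contained wt DNFB ears 2 and 3 and ko control ears 1 and 2, and ko control ear 3 was washed with all ko DNFB ears in run 3. The knockout could not be checked on these arrays: the Cnr1 probe sets ran from 4.88 to 19.8 and the Cnr2 probe set from 7.84 to 39.4 over all arrays, with means of 24.0 in wt DNFB and 32.7 in ko DNFB ears, and where they lie relative to the deleted parts is not given in the sources used here. Fat cell RNA was present in every group, by Adipoq, which is made almost only by fat cells. Adipoq averaged 1557 in wt control, 719.8 in wt DNFB, 1580 in ko control and 607.8 in ko DNFB ears. The fatty acid carrier Fabp4 ranged from 1694 to 3563 on its brightest probe set. The brown fat gene Ucp1 and the glycerol channel Aqp7 stayed below 16 on all arrays.

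The first question was what DNFB challenge does to these genes in ears with intact cannabinoid receptors. In wt ears, 7 of the 9 genes fell: Lep, Adipoq, Pparg, Plin4, Plin2, Cidea and Cidec. None rose, and Lipe and Hilpda did not pass the test. Among all genes tested, 24.1% fell and 19.1% rose. The 9 genes had a median log2 fold change of -0.97, against -0.08 for all genes. The intensities of 7 genes were lower in all 3 DNFB ears than in all 3 control ears, which held for 33.4% of all genes.

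In ko ears the same question gave 8 genes that fell: Lep, Adipoq, Pparg, Plin4, Plin2, Cidea, Lipe and Hilpda. None rose, and Cidec did not pass the test. Among all genes tested, 24.6% fell and 21.2% rose in these mice. The median of the 9 genes was -1.30, against -0.06 for all genes, and 8 genes had groups that did not overlap, with the DNFB ears below, against 30.3% of all genes. The genes called lower in both genotypes were the 6 genes Lep, Adipoq, Pparg, Plin4, Plin2 and Cidea. The share of all genes called lower in both is not given here. The wt call on Plin2 held in 7 of 14 alternatives.

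**Figure D1:**
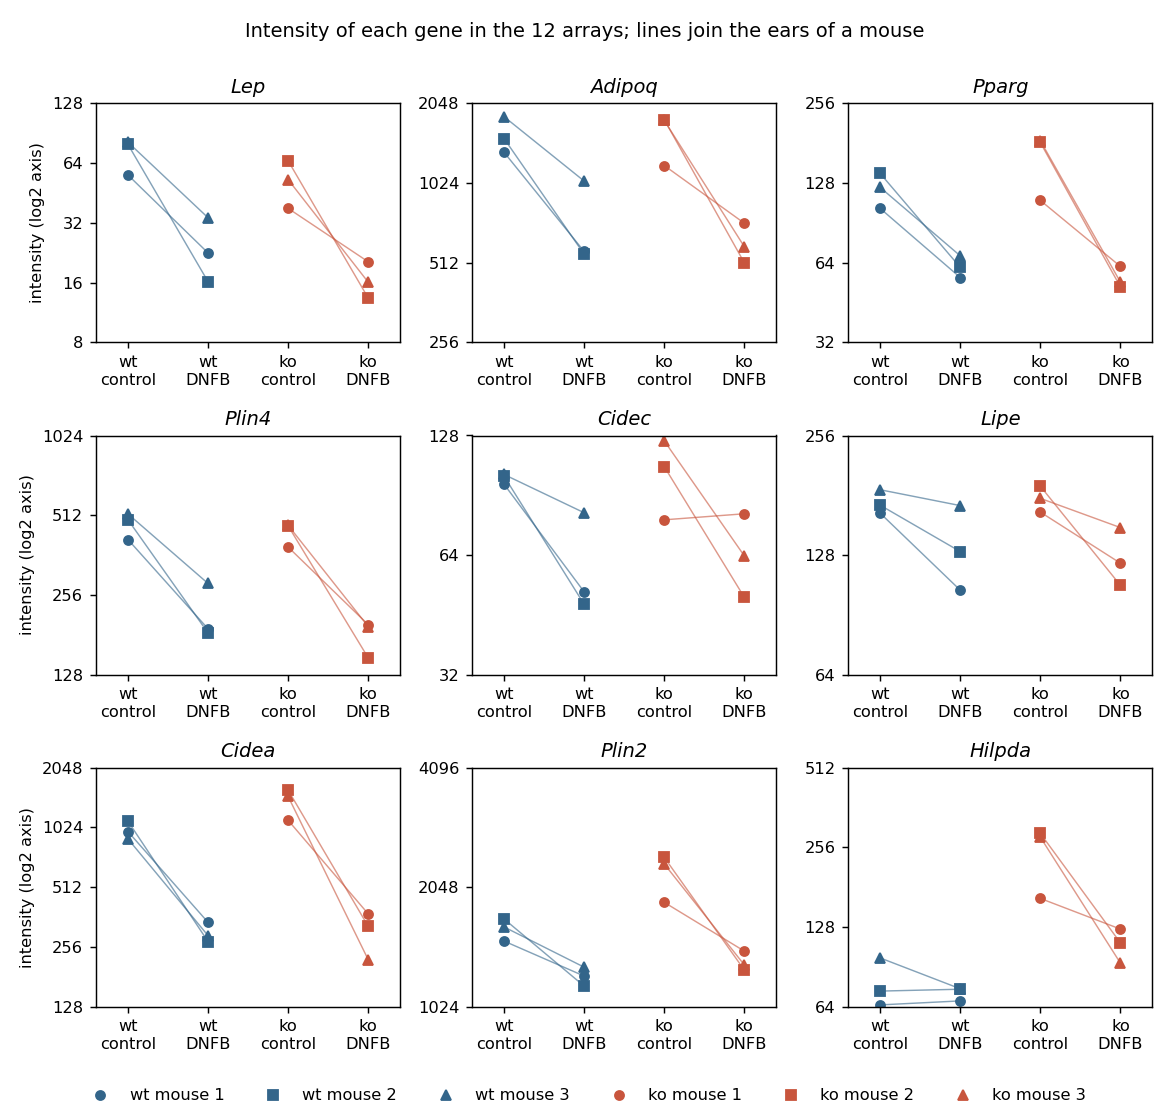
Intensity (log2 axis, a separate range per panel) of each of the 9 tested genes in wt (blue) and ko (red) control and DNFB ears; each symbol is an ear of a mouse and lines join the ears of that mouse. The lines of Lep, Adipoq, Pparg, Plin4, Plin2, Lipe and Cidea go down in all 6 mice, those of Cidec in 5 and those of Hilpda in 4.

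The hormone genes fell in both genotypes. Lep (1422582_at), the satiety hormone, had intensities of 55.8, 79.6 and 81.6 in wt control ears 1 to 3 and 22.6, 16.2 and 34.0 in the DNFB ears of the same mice. In ko mice it was 37.9, 65.8 and 52.9 in control and 20.4, 13.4 and 16.1 in DNFB ears. All DNFB ears lay below all control ears of their genotype, and those of the ko mice lay close to the floor of 16. Lep fell 3.07-fold in wt ears (log2 -1.62 ± 0.30, SE; limma adjusted p = 0.00196) and 3.11-fold in ko ears (-1.64 ± 0.30; limma adjusted p = 0.00168). On the log2(intensity + 16) scale, which damps changes of dim genes, the ko change was -1.05 and was still called.

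Adipoq (1422651_at), an insulin-sensitizing hormone made almost only by fat cells, was 1338, 1509 and 1825 in wt control ears and 565.1, 551.8 and 1042 in wt DNFB ears. In ko mice it was 1193, 1779 and 1767 in control and 722.4, 511.9 and 589.1 in DNFB ears. The groups did not overlap in either genotype, and wt DNFB ear 3 stood well above the other wt DNFB ears. The fall was 2.25-fold in wt (log2 -1.17 ± 0.26; limma adjusted p = 0.0063) and 2.58-fold in ko ears (-1.37 ± 0.26; limma adjusted p = 0.00243).

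Pparg (1420715_a_at), the regulator of the fat cell program, was 102.7, 139.2 and 123.3 in wt control ears and 56.3, 61.5 and 68.0 in wt DNFB ears. In ko mice it was 110.1, 182.2 and 185.1 in control and 62.0, 51.9 and 54.1 in DNFB ears. The DNFB ears of both genotypes covered nearly the same narrow range, below every control ear. Pparg fell 1.96-fold in wt (log2 -0.97 ± 0.20; limma adjusted p = 0.00387) and 2.77-fold in ko ears (-1.47 ± 0.20; limma adjusted p = 0.000294).

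Both tested coat genes fell in both genotypes. Plin4 (1418595_at), a perilipin of adipocyte droplets, was 414.3, 492.2 and 517.8 in wt control and 190.6, 183.9 and 282.8 in wt DNFB ears. It was 388.1, 466.8 and 468.8 in ko control and 197.6, 148.1 and 194.4 in ko DNFB ears. The groups did not overlap, and wt DNFB ear 3 was again the highest of its group. The fall was 2.20-fold in wt (log2 -1.14 ± 0.19; limma adjusted p = 0.00104) and 2.46-fold in ko ears (-1.30 ± 0.19; limma adjusted p = 0.000405).

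Plin2 (1448318_at), the perilipin of droplets in most cell types, was 1498, 1703 and 1626 in wt control and 1223, 1154 and 1288 in wt DNFB ears. It was 1876, 2434 and 2343 in ko control and 1413, 1267 and 1305 in ko DNFB ears. The wt change was small, 1.32-fold lower (log2 -0.40 ± 0.11; limma adjusted p = 0.0206), and without overlap. With the replicate block of the mouse it did not pass (limma adjusted p = 0.0677), and with arrays centred on their medians it was -0.25 (0.199). It was also lost without wt control ear 2 or 3 or DNFB ear 1 or 2 (limma adjusted p = 0.0503 to 0.0718). In ko ears Plin2 fell 1.66-fold (log2 -0.73 ± 0.11; limma adjusted p = 0.000705).

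Cidea fell in both genotypes. Cidea (1417956_at), a droplet fusion factor of brown fat that sebaceous gland cells also express, was 975.5, 1100 and 896.1 in wt control and 340.5, 272.4 and 291.9 in wt DNFB ears. It was 1112, 1577 and 1466 in ko control and 375.6, 325.3 and 220.9 in ko DNFB ears. The highest DNFB ear, at 340.5 in wt and 375.6 in ko mice, lay well below the lowest control ear, at 896.1 and 1112. Cidea fell 3.29-fold in wt (log2 -1.72 ± 0.20; limma adjusted p = 0.000146) and 4.57-fold in ko ears (-2.19 ± 0.20; limma adjusted p = 2.88e-05).

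Cidec (1452260_at), its counterpart in white fat, moved less and less evenly. It was 96.5, 101.1 and 102.1 in wt control and 51.7, 48.1 and 81.8 in wt DNFB ears. It was 78.5, 106.9 and 124.1 in ko control and 81.3, 50.1 and 63.7 in ko DNFB ears. In ko mouse 1 the ears differed little, and that DNFB ear lay inside the range of the control ears. The wt fall was 1.70-fold (log2 -0.76 ± 0.24; limma adjusted p = 0.031) and was lost with the replicate block of the mouse (limma adjusted p = 0.0665) and when any single array of the wt groups but DNFB ear 3 was left out (0.0649 to 0.107). The ko change of -0.67 ± 0.24 did not pass (limma adjusted p = 0.0511). It passed in 5 of 14 alternatives. These were without ko control replicate 1 (-0.85, limma adjusted p = 0.0274) and without ko DNFB replicate 1 (-0.84, 0.0292). With all arrays they were an intensity minimum of 64, trend and robust estimation, and log2(intensity + 16) (limma adjusted p = 0.0244, 0.02 and 0.0292).

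Lipe (1422820_at), the hormone-sensitive lipase, was 163.2, 170.9 and 186.9 in wt control and 104.4, 130.6 and 170.5 in wt DNFB ears. It was 164.2, 190.8 and 177.8 in ko control and 122.1, 107.4 and 150.1 in ko DNFB ears. Wt DNFB ear 3 reached into the range of the control ears, while the ko groups did not overlap. The wt change of -0.39 ± 0.18 did not pass (limma adjusted p = 0.114), though without wt DNFB replicate 3 it was -0.57 (limma adjusted p = 0.0262). The ko fall was 1.41-fold (log2 -0.50 ± 0.18; limma adjusted p = 0.0485) and did not pass with the replicate block of the mouse (limma adjusted p = 0.0507). It was also lost when any single array of the ko groups but DNFB ear 3 was left out (limma adjusted p = 0.0657 to 0.155) and was called in 4 of 14 alternatives.

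Hilpda (1421031_a_at), the inhibitor of adipose triglyceride lipase, was called in ko ears and not in wt ears. It was 65.0, 73.3 and 97.8 in wt control and 67.3, 74.5 and 74.8 in wt DNFB ears, and these groups overlapped. In ko mice it was 164.1, 288.9 and 279.6 in control and 125.7, 111.5 and 93.5 in DNFB ears, without overlap. The wt difference was -0.11 ± 0.23 (limma adjusted p = 0.744, 95% interval -0.61 to 0.40). Its sign turned with quantile normalization, with median centring or without wt control ear 3. In ko ears Hilpda fell 2.16-fold (log2 -1.11 ± 0.23; limma adjusted p = 0.00336).

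**Figure D2:**
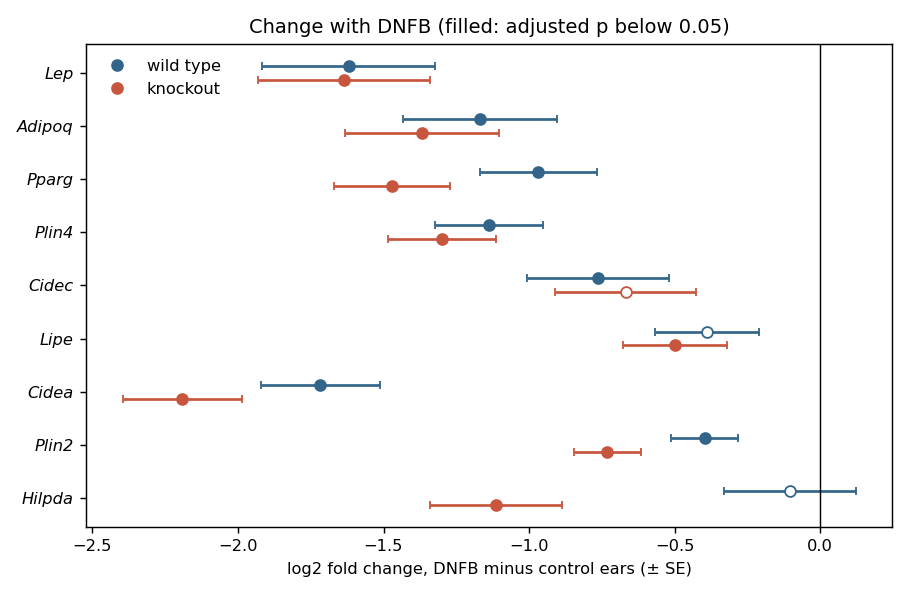
Log2 fold change of each gene, DNFB minus control ears, with the SE of the model, in wild type (blue) and knockout (red); filled points have an adjusted p below 0.05. All 18 points lie below 0, from -2.19 for Cidea in knockout ears to -0.11 for Hilpda in wild-type ears. Of all genes tested, 56.4% were below 0 in wild-type and 54.2% in knockout ears. The sign of Hilpda in wild-type ears depended on the settings.

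Taken per mouse, as the log2 difference between its ears, the change of Lep ran from -0.90 to -2.29 over the 6 mice and that of Adipoq from -0.72 to -1.80. Cidea ran from -1.52 to -2.73. Hilpda was 0.05, 0.02 and -0.39 in the wt mice and -0.38, -1.37 and -1.58 in the ko mice. Among the ko mice, mouse 1 had the smallest change in 8 of the 9 genes, all but Lipe.

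Within washing run 1, wt DNFB ear 1 could be set against the 3 wt control ears, and all 9 genes were lower, from -0.20 for Hilpda to -1.66 for Lep on the log2 scale. Within run 3, the 3 ko DNFB ears were set against ko control ear 3, and all 9 were lower, from -0.50 for Lipe to -2.29 for Cidea. Both within-run comparisons have a group of 1 array. With all arrays, 56.4% of all genes were lower with DNFB in wt ears and 54.2% in ko ears. The share of all genes within a run is not given here. In bulk ear tissue, fewer fat cells, a smaller share of fat cell RNA and less RNA per fat cell cannot be told apart. The same holds for changes in other cells that express these genes.

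Other genes of fat cells and lipid metabolism were read as lists. Of 15 tested fat cell genes beyond those above, 11 fell and 0 rose in each genotype, 10 of them in both, with medians of -0.65 in wt and -0.82 in ko ears. Sncg, a synuclein of adipocytes, fell by 1.60 ± 0.22 and 1.66 ± 0.22 on the log2 scale (limma adjusted p = 0.000392 and 0.000266). Adig, the adipocyte gene adipogenin, changed by -1.17 and -1.89, the hormone gene Retn by -1.08 and -1.43, and Rbp4, the carrier of retinol, by -1.11 and -1.25, all 3 called in both genotypes.

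Of 16 tested genes of droplet coat and lipolysis, 11 fell and 1 rose in each genotype, with medians of -0.55 in wt and -0.48 in ko ears (-0.51 and -0.43 with intensities below 16 set to 16). Mgll, which splits monoglycerides and the endocannabinoid 2-arachidonoylglycerol, fell by 1.53 ± 0.19 in wt and 1.97 ± 0.19 in ko ears on the log2 scale (limma adjusted p = 0.000187 and 3.44e-05). Ldah, a droplet hydrolase, changed by -1.56 and -1.76, and G0s2, another inhibitor of adipose triglyceride lipase, by -1.52 and -1.48. Pnpla2, that lipase itself, changed by -0.97 in ko ears. The coat gene Plin5 was 15.4, 15.8 and 22.8 in wt control ears and below 16 in all wt DNFB ears. Its fall in wt ears, at least 1.11-fold, was thus measured close to the floor in both groups.

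Triglyceride synthesis had 11 tested genes, of which 5 fell and 0 rose in wt and 7 fell and 2 rose in ko ears. Dgat2, which makes the last step of that synthesis, fell by 1.16 ± 0.12 and 1.57 ± 0.12 on the log2 scale (limma adjusted p = 5.81e-05 and 8.25e-06). Gpam, which makes the first, changed by -0.97 and -1.35.

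Genes listed as linked to Pparg and related receptors or to fat cell formation moved in both directions. Of 16 tested, 8 fell and 3 rose in wt, and 6 fell and 4 rose in ko ears. Among all genes tested, 24.1% fell and 19.1% rose in wt, and 24.6% fell and 21.2% rose in ko ears. The list medians were -0.54 in wt and -0.42 in ko ears (-0.35 and -0.11 with intensities below 16 set to 16). Ppara, the related receptor of fatty acid oxidation, changed by -1.49 and -1.76, Srebf1, a regulator of lipid synthesis, by -1.27 and -1.24, and Klf15 by -1.90 and -1.70. Angptl4, a secreted inhibitor of lipoprotein lipase, rose in both genotypes, by 1.23 in wt and 1.50 in ko ears on the log2 scale (limma adjusted p = 0.00228 and 0.00064). Of the 4 receptor genes for leptin and adiponectin, 3 fell in wt and 4 in ko ears, among them the leptin receptor Lepr (-0.86 and -0.72) and Cdh13, which binds adiponectin (-1.14 and -0.92).

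Genes induced by hypoxia, as Hilpda can be, had a median of 0.41 in wt and 0.36 in ko ears. Of 15 tested, 5 rose and 1 fell in wt, and 6 rose and 2 fell in ko ears. The lactate dehydrogenase Ldha rose by 1.22 and 1.11 and the glucose transporter Slc2a1 by 1.02 and 1.04. Of the 15 genes, 6 lay below 0 in wt and 5 in ko ears, and Ndrg1 fell in both genotypes. Hilpda was at -0.11 and -1.11, and the part of hypoxia in its change was not tested.

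Markers of sebaceous gland, muscle and cartilage mostly fell, those of macrophages and neutrophils mostly rose, and those of epidermis went both ways. Of 8 sebaceous gland markers, 6 fell in wt and 8 in ko ears, with medians of -0.98 and -1.22 (-1.14 in ko ears with intensities below 16 set to 16). Their summed intensity was 13327 to 14913 in wt control and 7678 to 8041 in wt DNFB ears, and 14732 to 16180 in ko control and 6776 to 9371 in ko DNFB ears. Of 6 skeletal muscle markers, 5 fell in each genotype, with medians of -0.89 and -1.16. The summed muscle markers were 8752 to 12773 in wt control and 4697 to 7634 in wt DNFB ears, and 9983 to 12143 in ko control and 5074 to 6540 in ko DNFB ears. Of 5 cartilage markers, 4 fell in each genotype, with medians of -1.56 and -1.45. Of 11 macrophage markers, 9 rose in wt and 10 in ko ears, with none falling. Their sum was 3581 to 3818 in wt control and 7963 to 9595 in wt DNFB ears, and 3558 to 3779 in ko control and 8528 to 10674 in ko DNFB ears. Of 7 neutrophil markers, 5 rose in each genotype, and their sum stayed at or below 132.7 in all control ears and reached 495.2 or more in all DNFB ears. Of 6 epidermis markers, 2 rose and 1 fell in wt and 3 rose and 1 fell in ko ears. The log2 ratio of 3' to 5' control probe sets of Actb, a sign of RNA quality, also moved with DNFB. It was 0.66 ± 0.07 in wt control and 0.52 ± 0.08 in wt DNFB ears, and 0.48 ± 0.02 in ko control and 0.42 ± 0.01 in ko DNFB ears (SD, n = 3). The ratio of Gapdh went from -0.40 ± 0.08 to -0.35 ± 0.03 in wt and from -0.38 ± 0.06 to -0.32 ± 0.06 in ko ears. The part of these cell types and of RNA quality in the changes of the 9 genes was not tested.

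**Figure D3:**
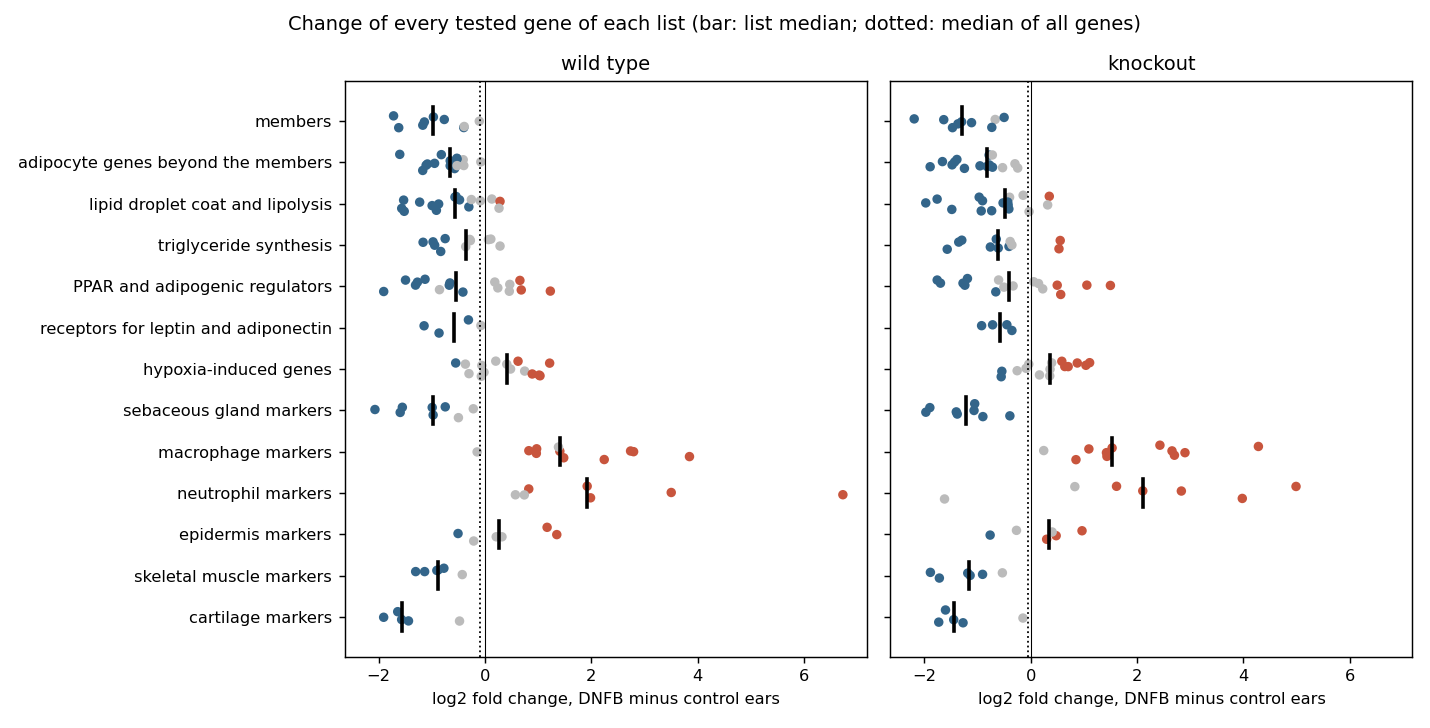
Log2 fold change, DNFB minus control ears, of every tested gene of each list in wild type and knockout; red points rose and blue points fell at an adjusted p below 0.05, grey points did not pass, bars are list medians and the dotted line is the median of all genes. The medians of the fat cell genes lie left of the dotted line, as do those of the sebaceous, muscle and cartilage markers, and the median of the macrophage markers lies to its right.

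Within groups, single arrays shifted most of the 9 genes together. Wt DNFB ear 3 was the highest of its group in 8 of the 9 genes, all but Cidea, with a median deviation of 0.36 from the group mean on the log2 scale. Ko control ear 1 was the lowest of its group in all 9, with a median deviation of -0.37, and wt control ear 1 the lowest in 8, all but Cidea, at -0.19. Ko DNFB ear 1 was the highest in 8, all but Lipe, at 0.20. Over all genes the medians of these arrays lay between -0.01 and 0.00.

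The other fat cell genes deviated the same way on these arrays, by 0.33 in wt DNFB ear 3, -0.17 in ko control ear 1 and 0.15 in ko DNFB ear 1. In wt DNFB ear 3, skeletal muscle markers were also high, at 0.29, while sebaceous markers were at -0.02 and epidermis markers at -0.16. In ko control ear 1, sebaceous markers were at -0.16 and muscle markers at 0.04. In wt control ear 1, muscle markers were at -0.26 and sebaceous markers at -0.03, and in ko DNFB ear 1 sebaceous markers were at 0.19 and muscle markers at -0.12. The part of these other cell types in the shifts was not tested.

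**Figure D4:**
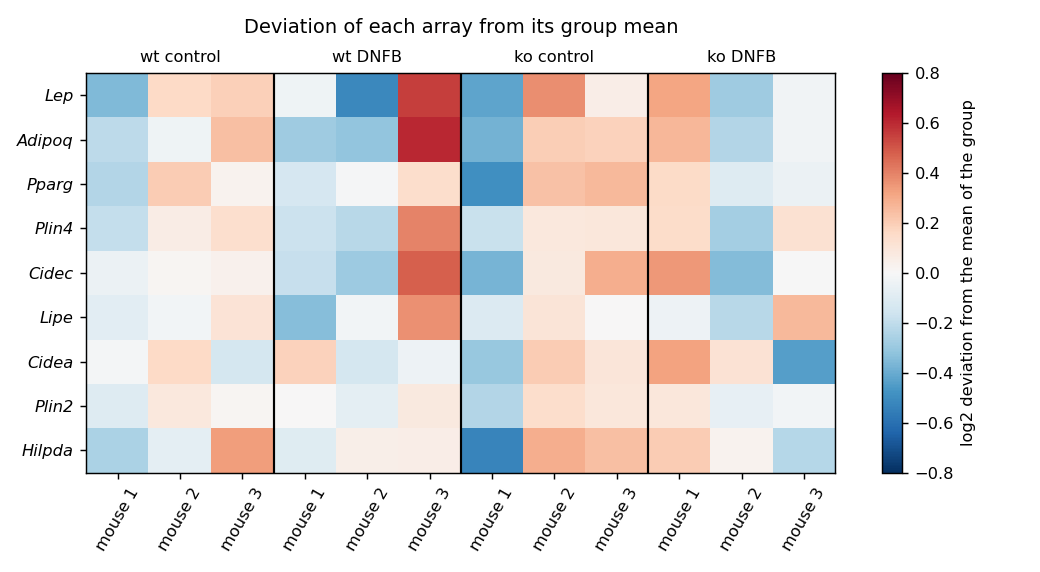
Deviation of each array from the mean of its group on the log2 scale (red above, blue below) for the 9 genes; columns are the 12 arrays by group and mouse. Ko control ear 1 is blue for all 9 genes, and wt DNFB ear 3 is red for all genes but Cidea.

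The next question was whether loss of the cannabinoid receptors changes these genes in untreated ears. Of the 9 genes, 1 was higher in ko than in wt control ears, Hilpda, and none was lower. Among all genes tested, 0.0822% were called higher and 0.0672% lower, and Hilpda was the 8th by fold of the 11 genes called higher. It averaged 244.2 ± 69.5 in ko and 78.7 ± 17.0 in wt control ears (SD, n = 3 each), 3.05-fold higher (log2 1.61 ± 0.23; 95% interval 1.10 to 2.12; limma adjusted p = 0.0257). Every ko control ear lay above every wt control ear, with 164.1 the lowest ko and 97.8 the highest wt value.

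Cidea and Plin2 also lay above the wt range in every ko control ear, so 3 of 9 genes did so, against 9.37% of all genes. Neither passed the test. At an unadjusted limma p under 0.05 were 3 of the 9 genes, Cidea, Plin2 and Hilpda, and the share of all genes at that level is not given here. Plin2 differed by 0.46 ± 0.11 on the log2 scale (limma adjusted p = 0.206) and Cidea by 0.47 ± 0.20 (0.408). The other 6 genes overlapped between genotypes. Their differences were -0.49 for Lep, with a 95% interval of -1.15 to 0.17, 0.01 for Adipoq (-0.58 to 0.60) and 0.36 for Pparg (-0.09 to 0.80). Plin4, Cidec and Lipe differed by -0.10, 0.02 and 0.03.

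The call on Hilpda depended on the settings and on single arrays. The wt control ears were all in washing run 1 and the ko control ears in runs 2 and 3, so no run gives a value for this comparison. With the run as a block, the difference was 1.34 and did not pass (limma adjusted p = 0.868). It did not pass either without wt control replicate 1 (1.48; limma adjusted p = 0.112) or without wt control replicate 2, ko control replicate 2 or ko control replicate 3 (0.115, 0.115 and 0.102). Over all 14 alternatives the difference ran from 1.34 to 1.87 and the limma adjusted p from 0.000568 to 0.868, with 8 calls.

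Other measures stood beside it as follows. Of the 15 hypoxia-induced genes, limma called 0 in ko against wt control ears, with 0 at an unadjusted p under 0.05 and a median of 0.05. The summed sebaceous markers were 14732 to 16180 in ko and 13327 to 14913 in wt control ears. The log2 ratio of 3' to 5' control probe sets of Actb was 0.48 ± 0.02 in ko and 0.66 ± 0.07 in wt control ears (SD, n = 3), and that of Gapdh was -0.38 ± 0.06 and -0.40 ± 0.08. Their part in the difference was not tested.

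In DNFB ears, limma called 0 of the 9 genes between genotypes, with 1, Hilpda, at an unadjusted p under 0.05. Among all genes tested, 0.0672% were called in either direction, and the share at an unadjusted p under 0.05 is not given here. Hilpda averaged 110.2 ± 16.2 in ko and 72.2 ± 4.2 in wt DNFB ears (SD, n = 3), and all ko ears lay above all wt ears, which held for 1 of 9 genes and for 8.92% of all genes. Its difference was 0.60 ± 0.23 on the log2 scale (limma adjusted p = 0.454). For Lep the difference was -0.50 (95% interval -1.16 to 0.16), for Adipoq -0.19 (-0.78 to 0.39) and for Pparg -0.14 (-0.59 to 0.30). Plin2 differed by 0.12 (-0.13 to 0.38) and Cidea by 0.00 (-0.45 to 0.45).

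**Figure D5:**
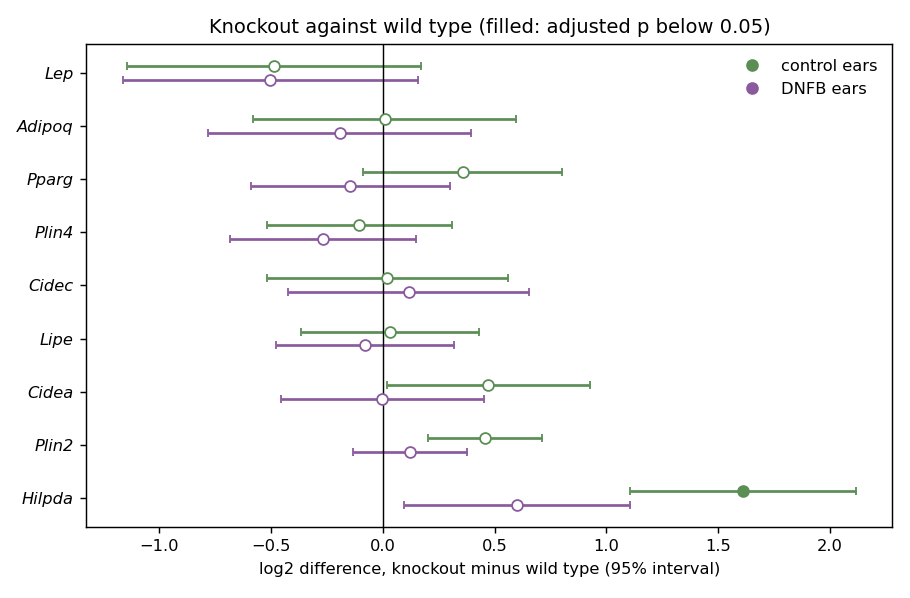
Log2 difference of each gene, knockout minus wild type, with its 95% interval, in control ears (green) and DNFB ears (purple); the filled point has an adjusted p below 0.05. Hilpda in control ears, at 1.61, is the single filled point.

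The difference between the DNFB responses of the genotypes was itself tested, and limma called 0 of the 9 genes, with 1, Hilpda, at an unadjusted p under 0.05. Among all genes tested, 0.00747% were called, and the share at an unadjusted p under 0.05 is not given here. For Hilpda the ko response minus the wt response was -1.01 ± 0.32 on the log2 scale (95% interval -1.72 to -0.29; limma adjusted p = 0.681). The difference was -0.50 for Pparg (-1.13 to 0.13), -0.47 for Cidea (-1.11 to 0.17) and -0.33 for Plin2 (-0.70 to 0.03). For Lep it was -0.02, with an interval of -0.95 to 0.92, which leaves room for a large difference in either direction. The response of Hilpda and its difference in control ears share the ko control ears and are not independent.

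Patterns over the 12 arrays were compared by the root mean square difference between log2 values, after centring each gene on its own mean. Adipoq and Plin4 were each other's nearest among the 9, at 0.13. The gene nearest to Adipoq beyond the 9 was Retn, at 0.15. Plin4 had Ldhb, Prkaa2 and Fzd4 nearest, at 0.14 to 0.15.

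Cidea was farther from the others, with Pparg its nearest among the 9 at 0.43, while Fa2h, Mgll and Panx3 lay at 0.10 to 0.15. Hilpda was nearest to Plin2 among the 9, at 0.48, and to Sptssb, Elovl3 and Tmem45b beyond them, at 0.28 to 0.33. These were picked for likeness over all 12 arrays, the control ears included. In control ears, the log2 difference, ko minus wt, was 1.51 for Sptssb, 1.13 for Elovl3 and 1.19 for Tmem45b. Elovl3 is on the sebaceous list and averaged 1820 in ko and 825.5 in wt control ears. It did not pass the test between genotypes in control ears (limma adjusted p = 0.112).

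The nearest genes of the remaining members were Sccpdh, Plekhb1 and Cbx7 for Lep (0.27 to 0.29) and Fads6, Mansc1 and Hrct1 for Pparg (0.15 to 0.17). They were Aqp1, Epdr1 and Cracr2b for Cidec (0.17 to 0.19), Kifbp, Coq9 and Bcap31 for Plin2 (0.08 to 0.10), and Atf5, Fabp4 and Mef2d for Lipe (0.10 to 0.12). These are descriptions over 12 arrays that share the DNFB contrast.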

How the data were processed

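RNA of 12 whole ears was measured on single-colour Affymetrix arrays. The deposited table holds 1 linear intensity per probe set and array, made by the authors with GCRMA, per the submitters' processing notes; its version is not given in the sources used here. The deposited instrument records hold no expression values (other unit) and served only to infer washing runs from times and modules. Gene names came from the platform annotation, updated through Entrez identifiers to RefSeq (34741 of 34945 single-symbol probe sets matched).

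Log2 values were fitted with limma 3.58.1 (lmFit, eBayes; R 4.3.3) with a mean per group over all 12 arrays. Benjamini-Hochberg adjustment ran over all 29460 probe sets that had an intensity of at least 16 in at least 3 arrays, at a threshold of 0.05. Each gene is represented by the tested probe set, annotated to it alone, that had the highest mean. The fit was tested on simulated data. The labels pair the left and right ear of each mouse; deviations of these arrays from the group means correlated at -0.00426 to 0.0797. The number of arrays limits the precision.

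Named genes are the 10 members, up to 4 genes of each list with the largest called change per response, the 3 genes nearest in pattern, and Cnr1 and Cnr2; not all are printed. The members and lists were chosen with earlier results of these data known. Alternatives were 2 filters, another variance model, 2 normalizations, log2(intensity + 16), mouse and washing run as blocks, each array left out, and every tested probe set.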

Additional observations from a re-analysis of the deposited data

How the results depend on the processing

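The number of genes called lower in wild-type ears, 7, ran from 5 to 7 over 9 alternatives and from 5 to 8 when 1 array was left out; in knockout ears, 8, it ran from 7 to 9 and from 7 to 8. Lep, Adipoq, Pparg, Plin4 and Cidea were called in all 14 alternatives in each genotype, as were Plin2 and Hilpda in knockout ears, while wild-type Cidec was called in 4, wild-type Plin2 in 7 and knockout Lipe in 4 of 14. With the mouse as replicate block, wild-type Cidec and Plin2 and knockout Lipe lost their calls (limma adjusted p = 0.0665, 0.0677 and 0.0507), and no other call changed. The number called between genotypes in control ears, 1, was 0 without a filter and with washing run as a block, 2 with trend and robust estimation, and 0 to 2 when 1 array was left out; the second gene was Plin2 (limma adjusted p = 0.038, and 0.0488 without knockout control replicate 1). In DNFB ears and for the difference of the responses the count was 0 in all alternatives. No called value changed sign. Median centring moved the median log2 fold change of all probe sets from -0.14 to 0.01 in wild-type ears and from -0.04 to 0.08 between genotypes in control ears, and wild-type Plin2 and Cidec and knockout Lipe then lost their calls (-0.25, -0.62 and -0.43). The cause of these differences was not tested. Each member has 1 tested probe set, so using every tested probe set changed nothing. Intensities near 16, as of Lep in knockout DNFB ears, limit how far a decrease can be measured.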
